A study of Mus musculus with 4 samples.

Results

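The SoxD genes Sox5, Sox6 and Sox13 and the SoxE genes Sox8, Sox9 and Sox10 were followed through 4 H3K27ac peak lists of mouse fetal cells. H3K27ac, acetylation of lysine 27 on histone H3, marks active promoters and enhancers. The 6 genes were taken by name, out of 21757 protein-coding genes. The rule for their intervals uses position alone, but the genes were chosen with earlier results of these data known. A peak interval was assigned to a gene when it touched the gene body or the 100 kb on either side of the annotated transcription start, and Sox9, which lies in a gene desert, was also given a window of 1 Mb on each side. Intervals within 2 kb upstream to 500 bp downstream of a start of a protein-coding transcript were called promoter intervals, and the remainder distal intervals. The 6 gene windows held 120 of the 40899 intervals of limb EGFP+ cells, 31 of 34360 in limb EGFP- cells, 89 of 36231 in trunk EGFP+ cells and 40 of 30716 in trunk EGFP- cells.

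The cells came from E14.5 fetuses made by tetraploid aggregation from a single clone of G4 embryonic stem cells that carries an EGFP reporter at Col2a1, the gene of the main cartilage collagen. Limbs and trunks were dissociated. The cells were sorted into an EGFP+ fraction, rich in chondrocytes, and an EGFP- fraction holding every other cell type of the tissue. All 4 populations share the genotype and the untreated state, were labelled by tissue and fraction, and were pooled from several fetuses. With 1 library per population there is no replicate error, so no difference between lists was tested, and every interval printed here covers counting error only. Limb and trunk libraries ran on different sequencing lanes, and lane and tissue are thus confounded.

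The lists were close in depth at the level the files show. The lowest local background, in reads expected in 200 bases, was 1.49 to 1.83 across the 4 lists, and the median summit held 24 to 26 reads. Of 12 chondrocyte marker genes, 12 carried a promoter interval in each EGFP+ list, against 3 in limb EGFP- and 4 in trunk EGFP- cells. Of 8 glial and neural crest markers, 4 had a promoter interval in each EGFP- list, 2 in limb EGFP+ and 1 in trunk EGFP+ cells. None of 6 endothelial, 5 epithelial and 4 blood markers had one in any list, although the EGFP- fraction of a limb or trunk holds such cells. Muscle markers had 1 of 6 in limb EGFP+ cells and 0 of 6 in the other lists. In bulk chromatin, fewer cells carrying a mark and less of the mark in each cell cannot be told apart.

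SOX9 is the SoxE factor that cartilage formation depends on. It binds cartilage genes such as Col2a1 and Acan, and it acts together with SOX5 and SOX6, SoxD proteins that have no activation domain of their own and bind the same genes as dimers. SOX8 is a close relative of SOX9. SOX10 is best known in neural crest, Schwann cells and melanocytes, and SOX13 in lymphoid and neural cells. All SOX proteins bind through an HMG box to the half-site AACAAT and close variants, and SoxE proteins also bind as dimers to a pair of inverted half-sites.

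Strong distal intervals of limb EGFP+ cells that no limb EGFP- interval overlapped are shown here, as the summit and 100 bases on either side of it in GRCm39, plus strand. They were picked for strength within each window and are not typical of the intervals counted below. For Sox9 the 3 strongest such intervals of the wide window are added. Capitals mark AACAAT or its reverse complement, and ACAAT followed after 3, 4 or 5 bases by ATTGT. For Sox6 and Sox10 the strongest interval of the kind lay in an exon, and the next one is shown.
Sox5, intron, chr6:144003159-144003359: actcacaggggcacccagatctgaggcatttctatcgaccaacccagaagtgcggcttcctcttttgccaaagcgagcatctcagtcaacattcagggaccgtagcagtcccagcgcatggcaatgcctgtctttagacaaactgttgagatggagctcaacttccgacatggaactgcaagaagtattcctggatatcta
Sox6, intron, chr7:115223633-115223833: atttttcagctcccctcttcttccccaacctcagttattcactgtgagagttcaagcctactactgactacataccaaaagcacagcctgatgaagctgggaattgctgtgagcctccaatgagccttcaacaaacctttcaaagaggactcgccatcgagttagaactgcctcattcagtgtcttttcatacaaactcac
Sox13, limb EGFP+, chr1:133410067-133410267: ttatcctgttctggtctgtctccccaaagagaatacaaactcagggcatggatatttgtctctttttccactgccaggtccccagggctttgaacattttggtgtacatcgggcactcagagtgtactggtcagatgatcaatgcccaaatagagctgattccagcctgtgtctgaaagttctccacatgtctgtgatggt
Sox8, intergenic, chr17:25768868-25769068: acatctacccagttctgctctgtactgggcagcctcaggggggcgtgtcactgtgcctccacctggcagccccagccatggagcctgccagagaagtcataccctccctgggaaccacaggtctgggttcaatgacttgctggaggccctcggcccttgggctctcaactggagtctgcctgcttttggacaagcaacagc
Sox9, intergenic, chr11:112589227-112589427: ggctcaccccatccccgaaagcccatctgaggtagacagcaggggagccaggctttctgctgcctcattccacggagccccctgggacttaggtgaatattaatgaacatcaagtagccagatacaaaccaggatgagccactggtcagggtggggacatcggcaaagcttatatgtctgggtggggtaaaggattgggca
Sox10, intron of Micall1, chr15:78993721-78993921: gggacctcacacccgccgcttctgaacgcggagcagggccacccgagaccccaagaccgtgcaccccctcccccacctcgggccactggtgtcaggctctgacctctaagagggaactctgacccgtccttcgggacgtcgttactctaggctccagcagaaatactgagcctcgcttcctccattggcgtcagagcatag
Sox9, far downstream, chr11:113111997-113112197: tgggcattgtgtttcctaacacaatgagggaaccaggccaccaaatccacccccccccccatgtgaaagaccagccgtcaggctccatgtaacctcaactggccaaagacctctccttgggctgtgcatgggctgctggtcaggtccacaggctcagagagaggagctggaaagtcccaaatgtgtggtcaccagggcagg
Sox9, downstream, number 2, chr11:113055594-113055794: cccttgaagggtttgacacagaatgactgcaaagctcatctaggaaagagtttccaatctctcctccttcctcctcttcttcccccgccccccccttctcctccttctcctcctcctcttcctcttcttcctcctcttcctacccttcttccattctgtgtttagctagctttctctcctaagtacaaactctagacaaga
Sox9, far upstream, chr11:111935584-111935784: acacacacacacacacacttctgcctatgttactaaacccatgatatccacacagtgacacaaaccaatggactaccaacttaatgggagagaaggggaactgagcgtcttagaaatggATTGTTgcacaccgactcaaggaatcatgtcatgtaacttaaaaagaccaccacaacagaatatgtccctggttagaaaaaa
The far upstream Sox9 element was the only one of these 9 with a capital run. For contrast, the strongest distal interval of Sox13 in trunk EGFP- cells, not overlapped in trunk EGFP+ cells, lay over the non-coding RNA gene Gm70581.
Sox13, trunk EGFP-, chr1:133420871-133421071: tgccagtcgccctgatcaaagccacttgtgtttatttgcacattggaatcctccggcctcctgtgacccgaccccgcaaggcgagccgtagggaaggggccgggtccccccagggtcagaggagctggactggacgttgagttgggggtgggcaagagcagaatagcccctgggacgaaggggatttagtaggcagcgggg
Among all distal intervals of the 6 genes, 1 held the inverted pair at its strongest summit. It lay in a Sox5 intron 517 kb downstream of the annotated start, was called in trunk EGFP+ cells with 17 reads (95% Poisson interval 9.90 to 27.2), overlapped an interval of trunk EGFP- cells, and was picked for its sequence after the search.
Sox5, paired sites, chr6:144210500-144210700: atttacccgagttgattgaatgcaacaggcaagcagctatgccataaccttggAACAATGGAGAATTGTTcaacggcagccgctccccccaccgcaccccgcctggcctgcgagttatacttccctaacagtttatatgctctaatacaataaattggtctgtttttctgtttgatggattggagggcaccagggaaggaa

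Around 5 of the 6 genes, all but Sox13, EGFP+ cells had more distal H3K27ac intervals than EGFP- cells in both tissues, though at Sox8 in the trunk the counts were 9 and 7. In the 6 windows there were 93 distal intervals in limb EGFP+ cells and 18 in limb EGFP- cells, and 70 and 24 in the trunk. An interval was called EGFP+-only or EGFP--only when no interval of the opposite fraction of its tissue overlapped it by 1 bp or more. In the limb, 84 of 93 EGFP+ distal intervals were EGFP+-only (90.3%, 95% exact binomial interval 82.4 to 95.5), where 68.5% of all 22833 limb EGFP+ distal intervals were. In the trunk, 61 of 70 were (87.1%, 77.0 to 93.9), against 69.1% of all. From the opposite fraction, 8 of 18 limb intervals were EGFP--only (44.4%, 21.5 to 69.2; 56.6% of all), as were 15 of 24 in the trunk (62.5%, 40.6 to 81.2; 57.3% of all), and both of these backgrounds lie inside the intervals.

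Put together, EGFP+ cells held 91.3% (83.6 to 96.2) of the single-fraction distal intervals of the 6 genes in the limb and 80.3% (69.5 to 88.5) in the trunk, where the shares over all distal intervals were 60.9% and 62.0%. The SoxD windows gave 52 EGFP+-only and 4 EGFP--only intervals in the limb, and 42 and 7 in the trunk. The SoxE windows gave 32 and 4 in the limb, and 19 and 8 in the trunk. SoxD and SoxE shares, 92.9% and 88.9% in the limb and 85.7% and 70.4% in the trunk, had intervals that overlapped within each tissue, and the interval of the SoxE trunk share, 49.8 to 86.2, includes the 62.0% of all distal intervals. At Sox8 the trunk counts were 7 EGFP+-only and 4 EGFP--only. The SoxD counts come almost wholly from Sox5 and Sox6, whose bodies are long.

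**Figure D1:**
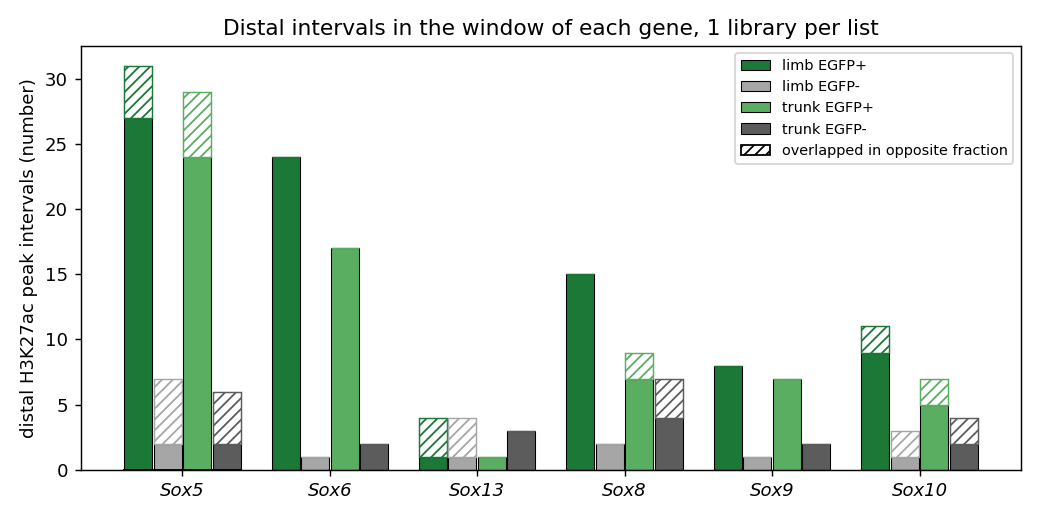
Distal H3K27ac peak intervals (vertical axis, number) in the window of each of the 6 genes (horizontal axis) in the 4 lists, 1 library each, with intervals overlapped in the opposite fraction of the tissue hatched. Sox5 has 31 and 29 intervals in limb and trunk EGFP+ cells against 7 and 6 in EGFP- cells, whereas Sox13 has 4, 4, 1 and 3.

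More EGFP+-only than EGFP--only distal intervals were found for 5 of the 6 genes in each tissue, a state shared by 37.2% of all protein-coding genes in the limb, 36.6% in the trunk and 22.7% in both tissues. The same 5 genes, all but Sox13, met it in both. More EGFP--only than EGFP+-only intervals were found for 21.9% of all genes in the limb and 20.6% in the trunk. The remaining genes had equal counts, and the median gene had 1 distal interval in each list. Windows with many intervals, such as those of Sox5 and Sox6, are thus unlike the usual gene in this comparison. Of the 13 other Sox genes, 8 had more EGFP+-only intervals in the limb and 6 in the trunk. Those 13 genes together had 24 EGFP+-only and 11 EGFP--only intervals in the limb and 13 and 11 in the trunk.

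The intervals of the 6 genes carried more reads than the usual distal interval in EGFP+ cells, and fewer in EGFP- cells. The median summit held 23 reads in limb EGFP+ and 24 in trunk EGFP+ cells, against 18 over all distal intervals of either list. In limb EGFP- and trunk EGFP- cells it held 13 and 15 reads, against 16 and 17. Their local background, which the peak caller estimates from the surroundings of a summit, was also higher in EGFP+ cells, with medians of 5.36 and 6.06 reads in limb and trunk against 3.62 and 3.90 over all distal intervals. Fold enrichment over that background had medians of 3.53 and 3.17 against 3.91 and 3.66. By -log10 p, the median within-list percentile of the 6 genes' distal intervals was 33.7 in limb EGFP+ and 37.5 in trunk EGFP+ cells, beside 32.7 and 31.7 for all distal intervals. Of the 93 and the 70, 2 and 0 stood above the 75th percentile of their lists. These percentiles rank promoter intervals too, whose medians were 74.8 and 73.3, and the share of all distal intervals above the 75th was not computed.

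Sox5 had the most distal intervals. Limb EGFP+ cells had 31 in its 1054 kb window and trunk EGFP+ cells 29, more than 99.95% and 99.97% of protein-coding genes had, but gene length enters that count. Per 100 kb of window, Sox5 distal intervals covered 1316 bp in limb EGFP+ cells and 1132 bp in trunk EGFP+ cells, higher than in 87.7% of genes in each list. In limb and trunk EGFP- cells the cover was 183 and 186 bp per 100 kb, higher than in 50.4% and 54.3% of genes. Within 100 kb of the annotated start alone the fractions of the trunk stood closer together. The cover there was 1070, 200, 1364 and 751 bp in limb EGFP+, limb EGFP-, trunk EGFP+ and trunk EGFP- cells, higher than in 66.3%, 37.4%, 76.3% and 69.3% of genes.

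Within Sox5, the intervals gathered downstream of the first coding start. The outermost start of a coding transcript lies 571 kb inside the annotated gene, and between 550 and 750 kb from the annotated start there were 17 distal intervals in limb EGFP+ cells and 19 in trunk EGFP+ cells, against 5 and 2 in limb and trunk EGFP- cells. Between 200 and 400 kb there was none in any list. The strongest, at chr6:144002855-144003511 in an intron, had 91 reads at its summit in limb EGFP+ cells (73.3 to 112) over a local background of 23.5, with a -log10 p of 26.0, at the 78.3rd percentile of its list. Its trunk EGFP+ counterpart had 53 reads (39.7 to 69.3) over 18.8. No EGFP- interval overlapped it in either tissue. A neighbouring intronic region, chr6:144001376-144002626, held 72 reads in limb EGFP+, 47 in trunk EGFP+ and 13 in limb EGFP- cells, and was not called in trunk EGFP- cells. The only distal region of Sox5 held by all 4 lists, chr6:144154438-144155279, lies beside the coding start. At that start itself, a promoter interval was called in limb EGFP+ cells with 62 reads (47.5 to 79.5) and in trunk EGFP+ cells with 48 (35.4 to 63.6), and in neither EGFP- list. The outer, non-coding start lay under intervals of 32, 27 and 11 reads in limb EGFP+, trunk EGFP+ and trunk EGFP- cells.

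Sox6 showed the largest contrast in distal counts of the 6 genes as a ratio, with 24 intervals in limb EGFP+ cells and 17 in trunk EGFP+ cells against 1 and 2 in EGFP- cells. No Sox6 distal interval of any list was overlapped in the opposite fraction. Between 350 and 500 kb downstream of the start, inside the gene, there were 13 in limb EGFP+ and 12 in trunk EGFP+ cells, and none in EGFP- cells. The strongest was chr7:115072070-115073411, in an exon near the end of the gene, with 45 reads (32.8 to 60.2) in limb EGFP+ and 29 (19.4 to 41.6) in trunk EGFP+ cells. The next, the intronic region chr7:115223333-115224280, held 55 reads (41.4 to 71.6) and 40 (28.6 to 54.5). The 3 EGFP- intervals, with 11, 13 and 8 reads, lay apart from these at 102, 318 and 272 kb from the start.

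**Figure D2:**
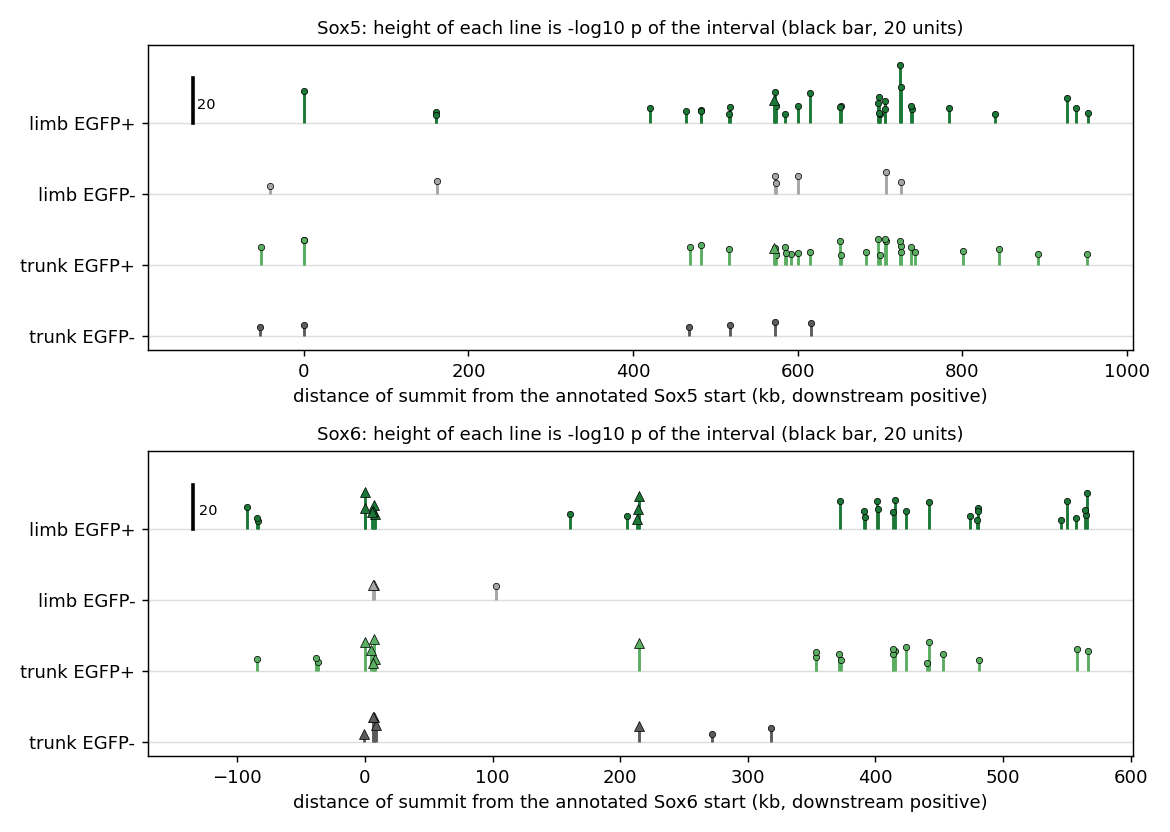
Position of the distal (circles) and own promoter (triangles) H3K27ac intervals along Sox5 and Sox6, as distance of the summit from the annotated start in kb (horizontal axis), in 4 rows for the 4 lists, with line height giving -log10 p. EGFP+ intervals gather from 550 to 750 kb in Sox5 and from 350 to 500 kb in Sox6, where EGFP- cells have few or none.

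Sox6 was also the gene with the most promoter intervals, 9 in limb EGFP+, 2 in limb EGFP-, 6 in trunk EGFP+ and 5 in trunk EGFP- cells, spread over 12 coding starts. Both fractions of both tissues thus carried the mark at Sox6 promoters. The outermost start held 88 reads (70.6 to 108) in limb EGFP+ and 65 (50.2 to 82.8) in trunk EGFP+ cells. It held 10 (4.80 to 18.4) in trunk EGFP- cells, and limb EGFP- cells had no interval there. Regions 6.0 and 7.2 kb downstream of it were held by all 4 lists. At 7.2 kb the summits had 74, 19, 74 and 31 reads in limb EGFP+, limb EGFP-, trunk EGFP+ and trunk EGFP- cells over local backgrounds of 30.8, 4.90, 26.0 and 6.98, so that the fold was 2.36, 3.39, 2.78 and 4.01. Reads were higher in EGFP+ cells and fold was higher in EGFP- cells. A further promoter 214 kb downstream was called in limb EGFP+, trunk EGFP+ and trunk EGFP- cells with 48, 45 and 15 reads.

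Sox13 had few intervals, and they did not favour EGFP+ cells. Its distal counts were 4, 4, 1 and 3 in limb EGFP+, limb EGFP-, trunk EGFP+ and trunk EGFP- cells, of which 1, 1, 1 and 3 were found in a single fraction. The strongest, chr1:133420283-133421144, 69 kb upstream of the gene, had 33 reads (22.7 to 46.3) in trunk EGFP- cells, where its fold was 6.83, 10 reads (4.80 to 18.4) in limb EGFP+ and 13 (6.92 to 22.2) in limb EGFP- cells, and was not called in trunk EGFP+ cells. A region 10 kb upstream, chr1:133361926-133362776, was called only in the limb, with 21 reads in EGFP+ and 15 in EGFP- cells, and the counting intervals of these (13.0 to 32.1 and 8.40 to 24.7) overlap. An own coding promoter interval was called in limb EGFP+ cells alone, with 18 reads (10.7 to 28.4). The window also holds the starts of Etnk2, Ren1 and Gm28040.

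Sox9 carried promoter H3K27ac in all 4 lists, so that presence of a promoter peak did not separate the fractions. Its own promoter intervals numbered 3, 2, 2 and 3 in limb EGFP+, limb EGFP-, trunk EGFP+ and trunk EGFP- cells. At the region shared by all 4, chr11:112673360-112673817, in an exon, the -log10 p was 20.5, 14.7, 16.2 and 20.6, and by this measure trunk EGFP- cells ranked no lower than EGFP+ cells. Reads at the summit were higher in EGFP+ cells, whereas fold was higher in EGFP- cells. The summit had 103 reads (84.1 to 125) in limb EGFP+ and 35 (24.4 to 48.7) in limb EGFP- cells. In the trunk it had 82 (65.2 to 102) in EGFP+ and 44 (32 to 59.1) in EGFP- cells, and the counting intervals of the fractions did not overlap in either tissue. The local background was 34.9 and 28.4 reads in EGFP+ cells and 6.70 and 7.20 in EGFP- cells. Fold over it was 2.90 and 2.83 in limb and trunk EGFP+ cells, and 4.68 and 5.49 in limb and trunk EGFP- cells. A second region about 0.9 kb upstream of the start had 97 and 68 reads in limb and trunk EGFP+ cells and no interval in EGFP- cells. Nearer the start, EGFP- cells had intervals that trunk EGFP+ cells lacked. The region chr11:112672423-112672931 was called with 71, 22 and 23 reads in limb EGFP+, limb EGFP- and trunk EGFP- cells, and chr11:112673050-112673255 in trunk EGFP- cells alone, with 29 reads (19.4 to 41.6). Within each tissue the libraries' own lowest backgrounds were 1.49 and 1.63 in limb EGFP+ and EGFP- cells, and 1.6 and 1.83 in the trunk, so the EGFP- libraries were not the shallower by this measure.

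**Figure D3:**
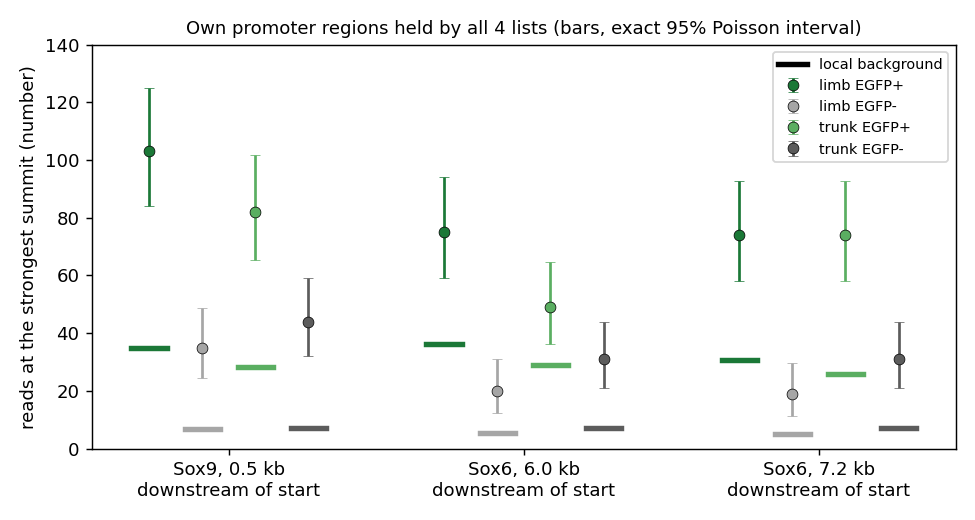
Reads at the strongest summit (points, vertical axis; bars, exact 95% Poisson interval) and local background (short thick lines) at the own promoter regions of Sox9 and Sox6 that all 4 lists hold. At Sox9, EGFP+ cells have 103 and 82 reads in limb and trunk and EGFP- cells 35 and 44, while the EGFP+ background is 34.9 and 28.4 against 6.70 and 7.20.

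Close to Sox9, every EGFP+ distal interval lay upstream. Within 100 kb there were 8 in limb EGFP+ and 7 in trunk EGFP+ cells, all upstream and all EGFP+-only. No EGFP+ distal interval was called in the first 100 kb downstream, where limb and trunk EGFP- cells had 1 each, of 12 and 11 reads, about 17 kb from the start. The strongest near element, chr11:112588135-112589478, 84 kb upstream, held 27 reads (17.8 to 39.3) in limb EGFP+ and 29 (19.4 to 41.6) in trunk EGFP+ cells. In trunk EGFP+ cells it was 1344 bp wide, wider than 97.5% of intervals in that list. A group 71 to 73 kb upstream stood on a raised background, with 41 reads over 14.8 in limb EGFP+ and 32 over 11.6 in trunk EGFP+ cells at its strongest summits. A region 42 kb upstream was called with 18 and 22 reads.

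Over 1 Mb on each side of Sox9 there were 99 distal intervals in limb EGFP+, 12 in limb EGFP-, 76 in trunk EGFP+ and 12 in trunk EGFP- cells. Of these, 93, 6, 70 and 7 were found in a single fraction. EGFP+ cells held 93.9% (87.3 to 97.7) of the single-fraction intervals in the limb and 90.9% (82.2 to 96.3) in the trunk. The shares over all distal intervals were 60.9% and 62.0%. The window also holds 7 other protein-coding genes, among them Slc39a11, Cog1 and Sstr2, and an interval near them is assigned by distance alone. Both sides of Sox9 were used, with 57 intervals upstream and 42 downstream in limb EGFP+ cells, and 43 and 33 in trunk EGFP+ cells. In trunk EGFP- cells, 1 lay upstream and 11 downstream, and in limb EGFP- cells 4 and 8.

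The EGFP+ intervals fell into groups separated by sparse stretches. From 1000 to 600 kb upstream limb EGFP+ cells had 30 and trunk EGFP+ cells 21, whereas from 600 to 500 kb upstream each had 1. From 300 to 500 kb downstream they had 20 and 15. EGFP- cells had 1 in the limb and 0 in the trunk over the far upstream stretch, and 4 in each tissue over the downstream stretch.

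The strongest element in the window was chr11:113111359-113112317, 439 kb downstream, with 62 reads (47.5 to 79.5) in limb EGFP+ cells, 34 (23.5 to 47.5) in trunk EGFP+ and 13 (6.92 to 22.2) in trunk EGFP- cells, and no interval in limb EGFP- cells. Its -log10 p of 31.8 in limb EGFP+ cells stood at the 83.4th percentile of that list. Nearby, chr11:113091584-113092696, 419 kb downstream near the non-coding RNA gene 2610035D17Rik, was called in all 4 lists, with 57, 16, 45 and 21 reads in limb EGFP+, limb EGFP-, trunk EGFP+ and trunk EGFP- cells. The EGFP+ intervals there, 43.2 to 73.9 and 32.8 to 60.2, did not overlap the EGFP- ones, 9.15 to 26.0 and 13.0 to 32.1. A smaller region 391 kb downstream, chr11:113063421-113063881, was held by all 4 lists too, and its highest -log10 p, 14.4, was in trunk EGFP- cells. On the upstream side, chr11:111946598-111947154, 726 kb away, was the strongest single element of trunk EGFP+ cells, with 38 reads (26.9 to 52.2), and had 56 (42.3 to 72.7) in limb EGFP+ and 11 (5.49 to 19.7) in limb EGFP- cells. The far upstream element with the half-site printed above, 737 kb away, had 43 and 25 reads in limb and trunk EGFP+ cells and none called in EGFP- cells. Of the 10 strongest distal regions of limb EGFP+ cells, 10 were also called in trunk EGFP+ cells, but these were picked for strength. Of all 99 limb EGFP+ distal intervals of the window, 50 (50.5%, 40.3 to 60.7) overlapped one of trunk EGFP+ cells, near the 49.4% of all limb EGFP+ distal intervals. Of the 76 trunk EGFP+ distal intervals, 52 (68.4%, 56.7 to 78.6) overlapped one of limb EGFP+ cells, against 59.4% of all trunk EGFP+ distal intervals.

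**Figure D4:**
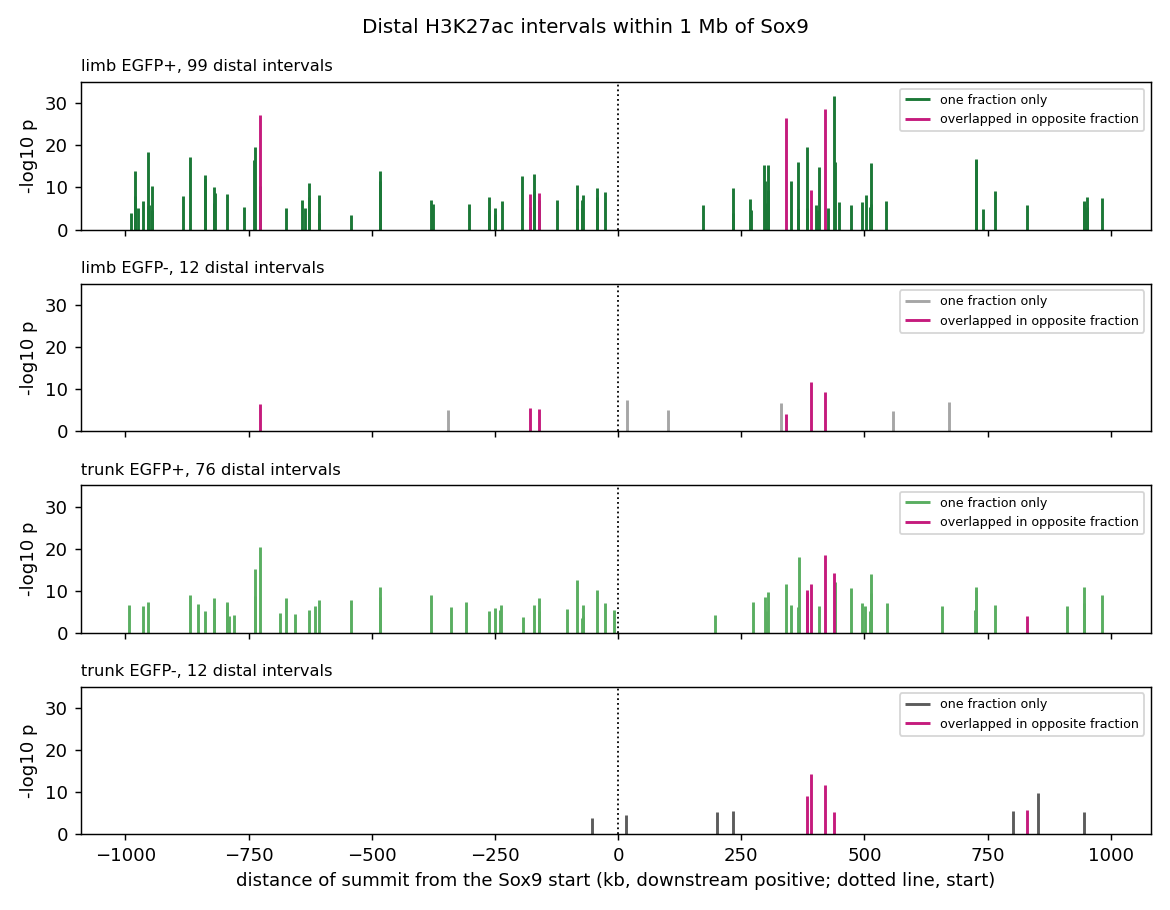
Distal H3K27ac intervals within 1 Mb of the Sox9 start in the 4 lists, with distance of the summit from the start in kb on the horizontal axis and -log10 p on the vertical axis, and intervals overlapped in the opposite fraction in pink. The 99 and 76 EGFP+ intervals spread over both sides, and the first 100 kb downstream has none in EGFP+ cells.

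Sox8 had 15 distal intervals in limb EGFP+ cells, 2 in limb EGFP-, 9 in trunk EGFP+ and 7 in trunk EGFP- cells. Their cover within 100 kb of the start, 6328 bp in limb EGFP+ and 5289 bp in trunk EGFP+ cells, was higher than in 98.6% and 98.7% of genes, the highest such position of the 6 genes. The window also holds the starts of Lmf1, Sstr5 and Tekt4, and in every list some of the distal intervals lay inside Lmf1. The cover is assigned by distance alone and cannot be given to Sox8 by position. In the trunk the EGFP- intervals were nearly as many, with a median width of 303 bp against 458 bp in EGFP+ cells. Over all distal intervals these medians were 303 bp in trunk EGFP- and 324 bp in trunk EGFP+ cells. The cover of the Sox8 intervals of trunk EGFP- cells, 2009 bp, was higher than in 91.5% of genes. The strongest element, chr17:25768263-25769295, 21 kb downstream, had 33 reads (22.7 to 46.3) in limb EGFP+ and 18 (10.7 to 28.4) in trunk EGFP+ cells, and none called in EGFP- cells. A pair of regions 92 and 93 kb upstream, inside the neighbour gene Lmf1, had 42 and 51 reads in limb EGFP+ and 32 and 39 in trunk EGFP+ cells.

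At Sox8 itself, H3K27ac ran over the short gene in EGFP+ cells alone. Limb EGFP+ cells had 3 promoter intervals, the strongest with 57 reads (43.2 to 73.9), and 2 more intervals 1.4 and 3.0 kb downstream with 48 and 44 reads. Trunk EGFP+ cells had intervals at 0.9, 1.6 and 3.0 kb with 31, 32 and 41 reads, of which the first lay just outside the promoter window, so that no coding promoter interval was counted in that list. The EGFP- lists had no interval over the gene. The promoter of the neighbour Lmf1, 8.6 kb away, was called in all 4 lists with 77, 52, 59 and 49 reads.

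Sox10 had 11 distal intervals in limb EGFP+ cells, 3 in limb EGFP-, 7 in trunk EGFP+ and 4 in trunk EGFP- cells. Its strongest, chr15:79036269-79036887, 13 kb downstream of the start and in an exon of the neighbour Polr2f, had 47 reads (34.5 to 62.5) in limb EGFP+ and 33 (22.7 to 46.3) in trunk EGFP+ cells, and was not called in EGFP- cells. By -log10 p it was the highest ranked distal interval of the 6 gene windows, at the 80.1st percentile of limb EGFP+ intervals. A region 36 kb upstream, chr15:79085266-79086484, was called with 27, 33 and 17 reads in limb EGFP+, trunk EGFP+ and trunk EGFP- cells. The gene's own promoter, however, had 1 interval of 19 reads (11.4 to 29.7) in limb EGFP+ cells and none in the other 3 lists. Sox10 shares its window with the starts of 7 other protein-coding genes, and the promoters of Polr2f, Pick1, Micall1 and Eif3l were called in all 4 lists, so the distal intervals there cannot be given to Sox10 by position. Glial and neural crest markers, the cells in which Sox10 is best known, had promoter intervals for 4 of 8 genes in each EGFP- list, and their part in the Sox10 result was not tested.

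Across the 6 genes, then, a promoter interval at a coding start was found for 6 genes in limb EGFP+ cells, for Sox6 and Sox9 in limb EGFP- cells, for Sox5, Sox6 and Sox9 in trunk EGFP+ cells, and for Sox6 and Sox9 in trunk EGFP- cells. Over all protein-coding genes the share with such an interval was 54.0%, 51.2%, 52.2% and 52.2%. None of the 6 had one in EGFP- but not EGFP+ cells of a tissue. That state was found in only 2% of all genes (limb) and 3.29% (trunk), so finding none among 6 genes does not set them apart. A promoter interval in limb EGFP+ but not limb EGFP- cells, the state of Sox5, Sox13, Sox8 and Sox10, was found in 4.79% of genes. The trunk equivalent, the state of Sox5, was found in 3.19%, and 47.1% of genes, like Sox6 and Sox9, had a promoter interval in all 4 lists. When any annotated start of the gene was accepted, coding or not, the counts were 6, 4, 5 and 3 of 6 genes, against 55.4%, 52.5%, 53.7% and 53.7% of all.

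The share of limb EGFP+ distal intervals that overlapped one of trunk EGFP+ cells was near that of all distal intervals. In the trunk EGFP+ list the share was higher than that of all, though its binomial interval includes the background. The limb EGFP+ list was also the longer as a whole, with 22833 distal intervals against 19295, and in lists of equal length the EGFP+-only counts of the 6 genes were 52 and 46. Among the 93 limb EGFP+ intervals, 45 (48.4%, 37.9 to 59.0) overlapped an interval of trunk EGFP+ cells, and of the 70 in trunk EGFP+ cells 49 (70.0%, 57.9 to 80.4) overlapped one of limb EGFP+ cells, against 49.4% and 59.4% of all distal intervals. For SoxE genes the trunk share was 91.3% (21 of 23, 72.0 to 98.9), and for SoxD genes 59.6% (28 of 47, 44.3 to 73.6). The SoxE interval lies above the 59.4% of all trunk EGFP+ distal intervals, and the SoxD interval includes it. In EGFP- cells the overlap was lower, with 5 of 18 limb intervals (27.8%, 9.69 to 53.5) and 4 of 24 trunk intervals (16.7%, 4.74 to 37.4), against 44.6% and 53.7% of all. Most EGFP- intervals of these genes were thus called in 1 tissue, and the binomial interval of the trunk share lies below the background share. Neighbouring intervals are not independent, so these intervals are narrower than the true uncertainty.

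When distal intervals of the 4 lists were joined into 131 regions, 30 (22.9%, 16.0 to 31.1) were held by EGFP+ cells of both tissues and by neither EGFP- list, where 10.8% of all 42651 distal regions were. Another 45 (34.4%, 26.3 to 43.1) were held by limb EGFP+ cells alone, against 21.8%, and 20 (15.3%, 9.58 to 22.6) by trunk EGFP+ cells alone, against 14.6%. Only 1 region (0.763%), at Sox13, was held by both EGFP- lists alone, against 4.62%, and 2 (1.53%) by all 4, against 8.87%. In the 1 Mb window of Sox9, 41 of 133 regions (30.8%, 23.1 to 39.4) were held by both EGFP+ lists alone, and none by both EGFP- lists alone.

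**Figure D5:**
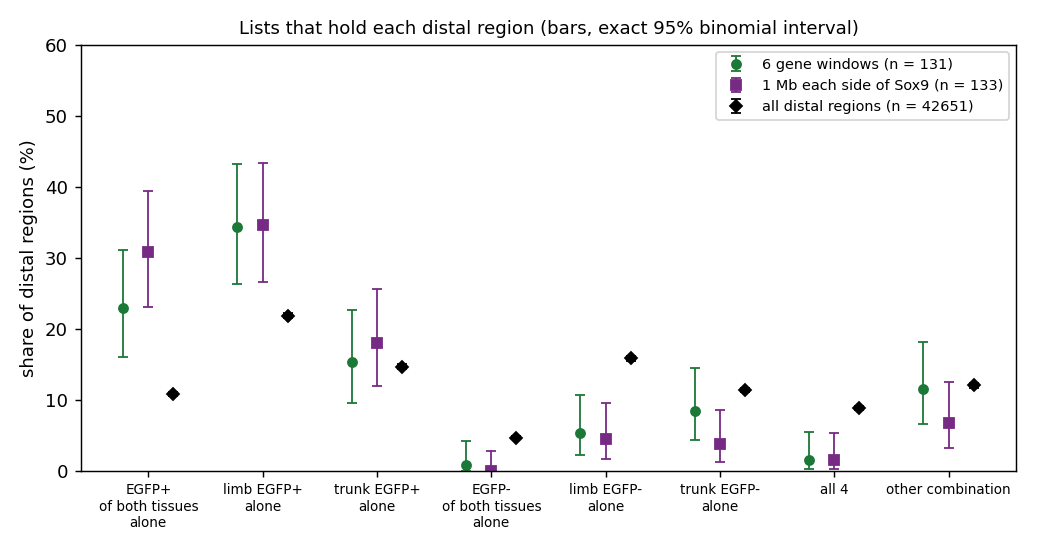
Share of distal regions (vertical axis, percent; bars, exact 95% binomial interval) held by each combination of lists (horizontal axis), for the 6 gene windows, the 1 Mb window of Sox9 and all distal regions. The share held by EGFP+ cells of both tissues alone is 22.9%, 30.8% and 10.8%.

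The SOX half-site was searched in the same window around each distal summit, as AACAAT on both strands, and the letters say nothing of binding. It was present in 13 of 84 EGFP+-only intervals of the 6 genes in the limb (15.5%) and in 3 of 61 in the trunk (4.92%), against 8.07% and 7.18% of all EGFP+-only distal intervals. The 2 tissues thus lay on opposite sides of the background share. In the 1 Mb window of Sox9 the counts were 13 of 93 in the limb (14.0%) and 1 of 70 in the trunk (1.43%). Inverted pairs, ACAAT followed after 3 to 5 bases by ATTGT, were in 0.0701% and 0.0363% of all limb and trunk EGFP+ distal intervals. Of 5 sequences searched beside the inverted pair, the E-box CAGCTG was the most frequent in limb EGFP+-only intervals of the 6 genes, in 17 of 84 (20.2%, against 12.5% of all). In trunk EGFP+-only intervals it was in 4 of 61 (6.56%, against 13.5%), whereas the wide Sox9 window had it in 16 of 93 and 13 of 70. TGTTTAC, bound by FOX factors, was in 1 of 84 limb intervals (1.19%, against 2.75% of all) and 4 of 61 trunk intervals (6.56%, against 2.81%). The MEF2 motif was in 3 (3.57%, against 2.76%) and 0 (against 2.91%). The AP-1 sequence TGANTCA was in 2 (2.38%, against 5.53%) and 5 (8.20%, against 5.05%). Counts this small move with single intervals. The median GC content of the intervals, 49.5% in the limb and 49.8% in the trunk, was close to the 48.8% and 49.8% of all.

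The genes whose distal cover within 100 kb of the start was most like that of each member, by Euclidean distance of log2(bp + 1) over the 4 lists, were Mdfi and H6pd for Sox8, Dek and Cplx3 for Sox9, Zscan2 and Ogfod2 for Sox10, Bcas2 and Atxn1 for Sox5, Mtmr14 and A630001G21Rik for Sox6, and Il4ra and Jarid2 for Sox13. With 4 values per gene, such likeness is a description only. Mdfi, an inhibitor of myogenic factors, had 6175, 617, 4747 and 1481 bp in limb EGFP+, limb EGFP-, trunk EGFP+ and trunk EGFP- cells beside 6328, 458, 5289 and 2009 bp for Sox8.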

How the data were processed

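H3K27ac ChIP-seq was performed once on each of 4 sorted populations, limb EGFP+, limb EGFP-, trunk EGFP+ and trunk EGFP-. Per the submitters' notes and methods, the authors sampled equal read numbers, trimmed them with cutadapt (1.18), aligned them to GRCm39 with Bowtie2 (2.3.5.1), kept well mapped reads with SAMtools and called peaks with MACS2 (2.2.7.1) in each library, without a model and with 200-base extension. A control library and a q threshold are not given in the sources used here. Each deposited peak row holds a score, a fold enrichment ratio over local background, -log10 p, -log10 q and a summit offset, all made by the authors. Read length, 50 or 100 bases, was not assigned to libraries, the labels' protocol names another sonicator beside the one in the study's methods, and the peak names of the trunk EGFP- list carry another replicate number than its label.

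Rows of the same start and end were joined, with the summit of highest -log10 p standing for the interval. Intervals were placed on the GENCODE M39 annotation of GRCm39 (67388 starts of protein-coding transcripts), and no interval passed a chromosome end. Reads at a summit and its local background were recovered from fold and -log10 p, which fixed both for 100% of intervals within 0.01 in -log10 p. Poisson and Clopper-Pearson intervals (95%) cover counting error only. Percentiles are the share of intervals of a list with lower -log10 p, or of genes with a lower value. The calls were tested on simulated data. The members, gene lists and motifs were chosen with earlier results of these data known. The named regions are the promoter regions, the 3 distal regions of highest -log10 p per gene, the strongest EGFP+-only and EGFP--only intervals and, around Sox9, the 10 strongest of limb EGFP+ cells. For Sox6 and Sox10 the strongest sequence lay in an exon of a coding gene and was passed over. SciPy 1.17.1 and pandas 2.3.3 were used.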

Additional observations from a re-analysis of the deposited data

Results flagged for a closer look

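For 4 genes the difference in distal intervals between limb and trunk ran in opposite directions in the EGFP+ and EGFP- fractions. With 1 library per population the difference was not tested, and counts this small move with single intervals. Sox8 had 6 more in limb than trunk in EGFP+ cells and 5 fewer in EGFP- cells, 11 apart. Sox6 had 7 more and 1 fewer, 8 apart. Sox10 had 4 more and 1 fewer, 5 apart. Sox9 had 1 more and 1 fewer, 2 apart.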

How the results depend on the processing

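No paired analysis was possible because each population has 1 library and the results come from no test. In 13 alternatives for the 6 windows and 9 for the wide Sox9 window, EGFP+ cells kept the larger share of single-fraction distal intervals, with limb shares of 75 to 97.6% and trunk shares of 67.6 to 88.9% for the 6 genes, and 89.5 to 100% and 86.6 to 96.4% for Sox9. Requiring a -log10 q of 5 gave limb and trunk EGFP+-only counts of 41 and 32 and EGFP--only counts of 1 and 4 for the 6 genes (shares 97.6 and 88.9%, beside 69.7 and 67.8% over all distal intervals), and 50, 27, 0 and 1 for Sox9 (100 and 96.4%). A fold of 4 gave 27 and 15 EGFP+-only (share 75% in each tissue, beside 64.0 and 64.9% over all, a smaller gap than in the main result) and 5 trunk EGFP--only, and 34, 19 and 2 for Sox9, and left 3 genes with an own promoter interval in each EGFP+ list. Lists of equal length gave 52 limb EGFP+-only, and 61 for Sox9, and lowered the share over all distal intervals to 50.1% (limb) and 51.3% (trunk). No interval within 1 kb left 5 limb EGFP--only, and a 200 kb window gave 15. Without the promoter filter trunk EGFP--only intervals around Sox9 were 11. At 500 kb each side the Sox9 counts were 48, 34 and, in trunk EGFP- cells, 4. Added after seeing the data, 100 kb around the starts without the gene bodies gave 37 and 23 EGFP+-only and 6 and 11 EGFP--only intervals. The limb share was then 86.0%, beside 60.9% over all distal intervals. The trunk share was 67.6%, beside 62.0% over all, a smaller gap than in the main result. Coding starts alone, also added after seeing the data, left 2 genes in limb EGFP- and 3 in trunk EGFP+ cells. Some counts fell and others rose, and the cause of the moved counts and shares was not tested. The EGFP--only counts of 8 and 15 are small, and shares move with single intervals.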
